A study of Mus musculus with 2 samples.

Results

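Mir21a and the miR-29 genes Mir29a, Mir29b-1, Mir29b-2 and Mir29c are the microRNA (miRNA) genes most often tied to scarring and matrix deposition in the kidney. They were taken by name, with no threshold on a measured value. All 5 have a line in the count files, out of 1973 miRNA genes measured. The samples were kidneys of B6NCrl mouse embryos at 15.5 days of development, labelled healthy and of both sexes, with no allele, treatment or injury. The 2 libraries make up 1 group and are biological replicates per the labels, from pools of 78 embryos (replicate 1) and 62 embryos (replicate 2). RNA under a size limit that keeps mature miRNAs was sequenced from whole organs, so values are averages over all cell types of the kidney. There is no fibrotic, adult or treated group, and the name of this set refers to its known roles, not to a state of these samples.

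A miRNA gene is transcribed as a hairpin, from which a short mature strand is cut and loaded into the silencing complex. That strand pairs with messenger RNAs mainly through its seed, the bases from position 2 to position 8, and lowers their stability and translation. miR-21 is known to rise in injured kidney epithelium and in activated fibroblasts, where it promotes fibrosis. miR-29 targets transcripts of collagens and other matrix proteins, and its loss is known to favour fibrosis. No messenger RNA was measured here, so no effect on a target was tested.

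The mature strands are shown first because they decide which reads could be counted. They are from RefSeq (GRCm38.p6), which held all 5 genes, and run 5′ to 3′ with the seed in capitals.
miR-21a-5p, from Mir21a: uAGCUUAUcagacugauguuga
miR-29a-3p, from Mir29a: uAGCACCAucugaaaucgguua
miR-29b-3p, from Mir29b-1 and Mir29b-2: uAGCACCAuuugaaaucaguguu
miR-29c-3p, from Mir29c: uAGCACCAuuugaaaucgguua
The miR-29 strands carry 1 seed, AGCACCA, and no other mature strand in the RefSeq table has it. With positions counted from 1 at the 5′ end, miR-29a-3p differs from miR-29c-3p over 22 bases by C10U alone. miR-29c-3p differs from miR-29b-3p by G18A, U21G and A22U. A read that starts at the first base is therefore unlike every other annotated miRNA hairpin from base 10 on for miR-29a-3p, and only from base 18 on for miR-29c-3p. For miR-21a-5p this holds from base 16 on.

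The copies Mir29b-1 and Mir29b-2 are the special case, and their hairpins are shown with the longest stretch they share in capitals, 25 bases that hold all of miR-29b-3p.
Mir29b-1: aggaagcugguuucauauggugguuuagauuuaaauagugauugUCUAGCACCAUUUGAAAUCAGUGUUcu
Mir29b-2: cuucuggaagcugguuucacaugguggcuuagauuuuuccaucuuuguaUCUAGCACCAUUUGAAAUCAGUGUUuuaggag
A read that lies within this stretch matches both hairpins and cannot be placed in either. The files set reads that match several loci apart from the gene counts. Such reads were 27.1% of the total in replicate 1 and 26.6% in replicate 2, with no record of the genes they matched. The other arms, miR-29b-1-5p and miR-29b-2-5p, are not found whole in any other annotated miRNA hairpin. The counts of both genes are thus no measure of mature miR-29b.

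Mir21a has 1 relative with the same seed, Mir21c, whose strand differs from miR-21a-5p by A16G, G18A, U19C, U20A and G21A.
miR-21c, from Mir21c: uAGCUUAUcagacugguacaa
Mir21c had 0 reads in both libraries, and so had Mir21b, whose strand departs from the seed of miR-21a-5p by C4U. CPM is the own-strand count scaled to a library total of 1000000. At these depths 0 reads leave room for a level of up to 0.496 CPM (replicate 1) or 0.629 CPM (replicate 2). Such limits and all intervals given here are 95% and cover counting error only.

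In the mm10 assembly with the GENCODE M21 annotation, Mir21a (ENSMUSG00000065455.1) lies on the minus strand of chromosome 11 from 86584067 to 86584158. It overlaps an exon annotated to Vmp1, which encodes a membrane protein of autophagy, on the same strand. The miR-29 genes form a pair on each of 2 chromosomes. Mir29a (ENSMUSG00000065610.1) is on the minus strand of chromosome 6 from 31062660 to 31062747, and Mir29b-1 (ENSMUSG00000065604.1) lies 275 bases away, from 31063023 to 31063093. Mir29b-1 overlaps an exon of the long non-coding RNA Gm27019, and Mir29a overlaps no other annotated gene. Mir29b-2 (ENSMUSG00000065412.2) is on the plus strand of chromosome 1 from 195037040 to 195037120, with Mir29c (ENSMUSG00000065548.1) 426 bases away, from 195037547 to 195037634. Both overlap exons of the non-coding transcript A330023F24Rik on their own strand, and of Cd46, a complement regulator, on the other strand. No further miRNA gene lies within 10 kb of any member. The models of Mir29b-1 and Mir29b-2 carry a later version in M21 than in the files, so the ends that were counted may differ from these.

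Mir21a was by far the most abundant member. It had 50125 reads in replicate 1 and 39257 in replicate 2, or 6742 CPM (interval 6684 to 6802) and 6695 CPM (6630 to 6762). The mean was 6719 ± 33.3 CPM, or 0.672% ± 0.00333 of the gene reads (SD, n = 2). The libraries were nearly level, and Mir21a stood at rank 26 of 1973 genes by mean, at rank 26 in replicate 1 and rank 27 in replicate 2. All reads of the gene lay on its own strand, with 0 on the opposite strand in either library. In bulk RNA, fewer cells that make a miRNA and less of it per cell cannot be told apart, which holds for each level given here.

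The genes next to Mir21a in level were Mir351 and Mir100 above it and Mir652 and Mir106b below it. With 2 libraries of 1 group, level is the only measure of likeness available. Mir100 stood at 7316 and 6829 CPM, above Mir21a in both libraries. Mir351, at 5638 and 9045 CPM, Mir652, at 5983 and 7422 CPM, and Mir106b, at 6778 and 6104 CPM, overlapped the range of Mir21a. Its order among these 3 is therefore not settled by the replicates.

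The miR-29 genes stood far below Mir21a in counted reads. Mir29c, the upper of the family, had 386 and 355 reads, or 51.9 CPM (46.9 to 57.4) in replicate 1 and 60.5 CPM (54.4 to 67.2) in replicate 2. Its mean was 56.2 ± 6.10 CPM (SD, n = 2), at rank 205. Mir29a had 363 and 313 reads, or 48.8 CPM (43.9 to 54.1) and 53.4 CPM (47.6 to 59.6). Its mean was 51.1 ± 3.22 CPM (SD, n = 2), at rank 211. Both lay near the middle of the genes detected, as the median gene among those with at least 1 CPM in both libraries stood at 68.8 CPM.

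Mir29a and Mir29c could not be told apart in level. Mir29c had 1.06 times the reads of Mir29a in replicate 1 (interval 0.919 to 1.23) and 1.13 times in replicate 2 (0.972 to 1.32). Both intervals hold 1, and the ranges of the genes over the libraries overlap. The genes nearest to Mir29a in mean level were Mir138-2 and Mir338 above and Mir496a and Mir679 below. Those nearest to Mir29c were Mir1981 and Mir331 above and Mir673 and Mir345 below. All 8 had ranges that overlapped that of their member.

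Mir29b-1 and Mir29b-2 had almost no reads of their own. Mir29b-2 had 5 reads in replicate 1 and 4 in replicate 2, or 0.673 CPM (0.218 to 1.57) and 0.682 CPM (0.186 to 1.75). Mir29b-1 had 4 and 2 reads, or 0.538 CPM (0.147 to 1.38) and 0.341 CPM (0.0413 to 1.23). The 2 reads of Mir29b-1 in replicate 2, at 0.341 CPM, lie under the 0.629 CPM that a count of 0 allows there. The copies did not differ beyond counting error, at 1.25 reads of Mir29b-2 per read of Mir29b-1 (0.269 to 6.30) in replicate 1 and 2.00 (0.287 to 22.1) in replicate 2. None of the miR-29 genes had a read on the opposite strand.

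**Figure D1:**
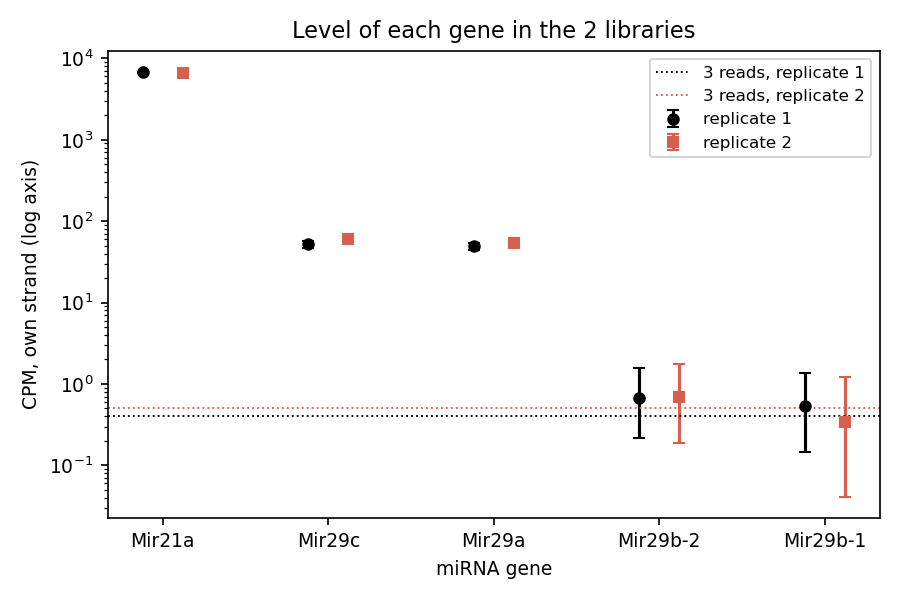
CPM of the 5 genes (log axis) in replicate 1 (circles) and replicate 2 (squares), with 95% exact binomial intervals that cover counting error, and dotted lines at the level of 3 reads in each library. Mir21a sits at 6742 and 6695 CPM, Mir29a spans 48.8 to 53.4 CPM and Mir29c 51.9 to 60.5 CPM, so they overlap, and Mir29b-2 and Mir29b-1 lie near the lines, at 2 to 5 reads.

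At least 1 CPM in both libraries was reached by 3 of the 5 members, Mir21a, Mir29a and Mir29c, against 20% of all 1973 genes. The genes were taken as much-studied miRNAs, and no test is attached to that count. Scaled by hairpin length, the order did not change. Hairpins of 71 to 92 bases differ too little in length to change it, so this is no separate support. Mir21a had a mean of 73.0 CPM per base over 92 bases, Mir29c had 0.639 and Mir29a 0.581 over 88 bases each, Mir29b-2 had 0.00836 over 81 bases and Mir29b-1 had 0.00619 over 71 bases.

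Together the miR-29 genes held 758 and 674 reads, a sum of 102 CPM in replicate 1 and 115 CPM in replicate 2, with a mean of 108 ± 9.19 CPM (SD, n = 2). Mir29c made up 50.9% of this sum in replicate 1 (interval 47.3 to 54.5) and 52.7% in replicate 2 (48.8 to 56.5). Mir29a made up 47.9% (44.3 to 51.5) and 46.4% (42.6 to 50.3). Mir29b-1 and Mir29b-2 gave 0.412% ± 0.163 and 0.627% ± 0.0468 (SD, n = 2 each). The pair on chromosome 6 had 0.939 (0.812 to 1.09) and 0.877 (0.752 to 1.02) times the reads of the pair on chromosome 1. It was lower in both libraries, by no more than counting error allows. Reads of miR-29b-3p that lie within the stretch shared by the Mir29b genes match several loci. The files do not tell which reads make up the counts of those genes.

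Mir21a exceeded the summed miR-29 genes by 66.1 times in replicate 1 (interval 61.5 to 71.1) and by 58.2 times in replicate 2 (54.0 to 62.9). This ratio is taken within a library and does not depend on its scaling. It is a ratio of uniquely placed reads, so reads of miR-29b-3p that match both Mir29b hairpins are not in its denominator, and their number was not measured. Against Mir29a alone, the miR-29 gene that shares no 20-base stretch with another miRNA gene, the mean ratio was 132. That rise follows from leaving out Mir29c, with 50.9% and 52.7% of the summed reads, and does not measure the effect of multiply matching reads.

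Within each pair, Mir29a and Mir29c had far more counted reads than the Mir29b gene beside them. Mir29a had 90.8 times the reads of Mir29b-1 in replicate 1 (interval 35.1 to 335) and 156.5 times in replicate 2 (43.0 to 1298). Mir29c had 77.2 times the reads of Mir29b-2 in replicate 1 (32.8 to 239) and 88.8 times in replicate 2 (34.4 to 328). Neighbours this close are usually cut from 1 transcript, but these ratios compare countable reads and say nothing of the mature miR-29b level.

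Counts of other genes with copies were read beside these. RefSeq lists 2 mature arms for 582 of the measured genes. In 56 of them, both Mir29b genes included, 1 arm also lies whole in another annotated miRNA gene, and 43 of these 56 (76.8%) still reached 1 CPM in both libraries, with a median of 15.7 CPM. Mir29b-1 stood above 11 of the 56 and Mir29b-2 above 12, and 43 of the 56 stood above both. Where neither arm was shared, as for Mir21a, Mir29a and Mir29c, 244 of 507 genes (48.1%) reached 1 CPM, with a median of 1.12 CPM. Where both arms were shared it was 6 of 19 genes (31.6%). The groups differ in which genes they hold, and the 507 include many late-numbered genes with almost no reads. Their shares and medians therefore do not measure what a shared arm costs in reads. Genes with 1 shared arm thus had low counts in some cases and high counts in others. The grouping does not record whether the shared arm is the main strand. The part of a shared arm in the low counts of the Mir29b genes was not tested.

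**Figure D2:**
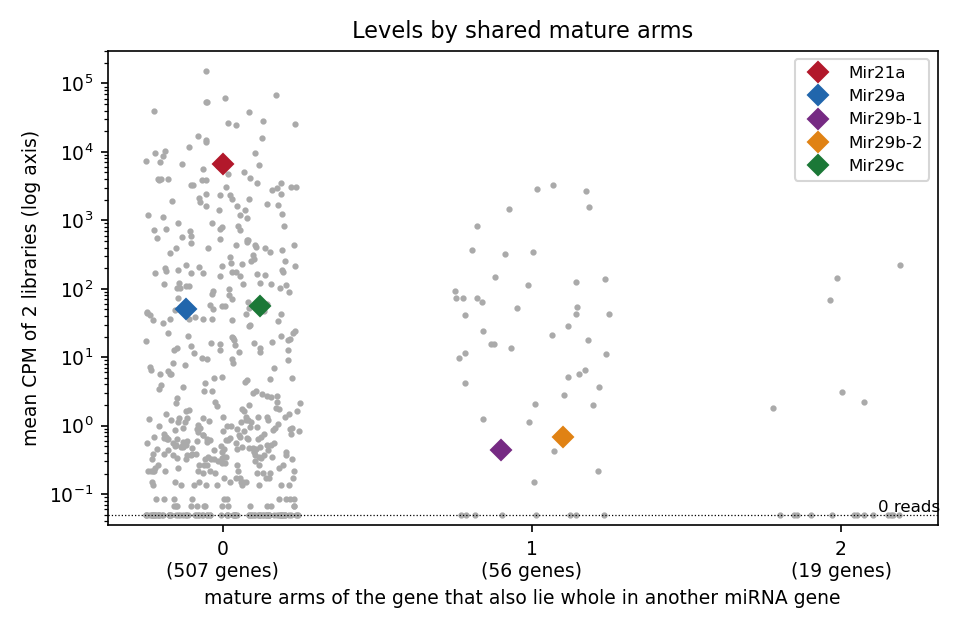
Mean CPM (log axis) of the 582 genes with 2 RefSeq arms, by how many of their arms also lie whole in another miRNA gene; each point is a gene, genes with no read are drawn on the dotted line, and diamonds mark the members. Mir29b-1 and Mir29b-2 lie below 43 of the 56 genes with 1 shared arm, while Mir21a, Mir29a and Mir29c are among the 507 with none.

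Between the pools, the CPM of Mir21a was nearly equal, and Mir29a and Mir29c moved little. The log2 ratio of replicate 2 over replicate 1 was -0.01 for Mir21a (interval -0.03 to 0.01), 0.13 for Mir29a (-0.09 to 0.35) and 0.22 for Mir29c (0.01 to 0.43). No member with a mean count of at least 100 passed 2-fold, and only 3.41% of the 264 genes at that count did. The absolute ratio was smaller than that of Mir21a in 7 of these 264 genes, smaller than that of Mir29a in 78 and smaller than that of Mir29c in 116. The median gene had a log2 ratio of 0.13, and the middle 50% of genes ran from -0.09 to 0.37. Relative to that median, Mir21a stood at -0.14, Mir29a at 0.00 and Mir29c at 0.09.

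These small ratios follow the scaling. Scaling by TMM and by DESeq2 size factors shifts every log2 ratio by -0.13 and -0.16, which exceeds the ratio of Mir21a and takes that of Mir29a to about 0. Under them Mir21a stood at -0.14 and -0.17, Mir29a at 0.00059 and -0.031, and Mir29c at 0.09 and 0.06. Mir29b-1, at -0.66 (-4.12 to 2.15), and Mir29b-2, at 0.02 (-2.31 to 2.24), have too few reads for a ratio to be read.

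**Figure D3:**
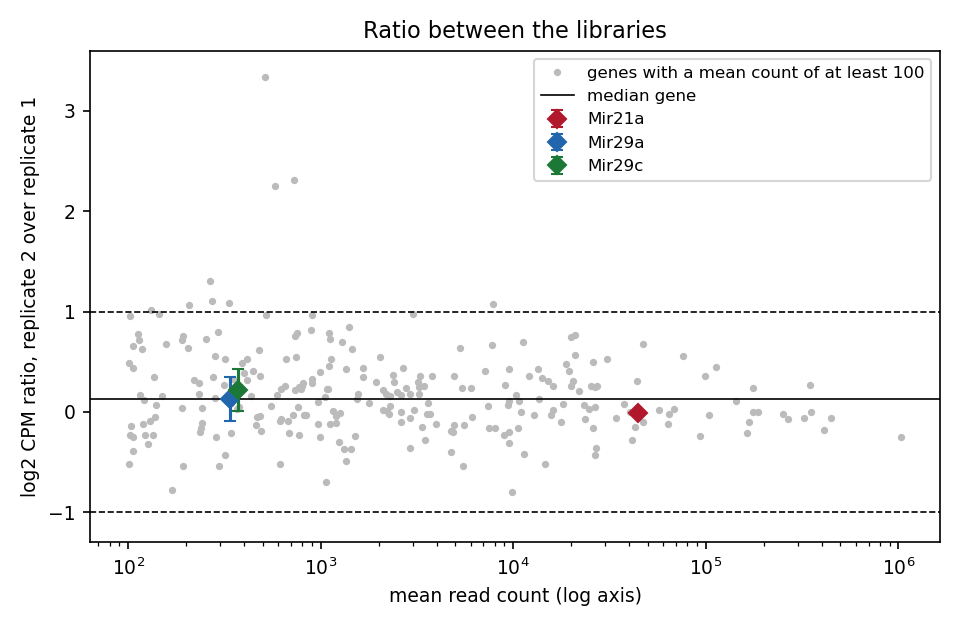
Log2 ratio of CPM, replicate 2 over replicate 1, against the mean read count (log axis) for the 264 genes whose mean count was 100 or more; bars on the members are 95% exact binomial intervals, dashed lines mark 2-fold and the solid line the median gene at 0.13. Mir21a lies at -0.01 and Mir29a and Mir29c at 0.13 and 0.22, all inside 2-fold.

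Other miRNAs described in renal fibrosis were read on the same scale. The lists were drawn up from general knowledge of adult disease, with earlier results of these data known. Of 13 genes described as promoting it, 12 reached 1 CPM in both libraries, against 20% of all 1973 genes. The median gene of the list stood at 101 CPM. The median was 0 CPM over all 1973 genes and 68.8 CPM among those with at least 1 CPM in both libraries. As with the members, these are much-studied miRNAs, and no test is attached to the counts of either list. Mir214, a mesenchymal miRNA, led at 3759 and 4499 CPM. Mir382 and Mir433, of the imprinted Dlk1-Dio3 domain, followed at 1319 and 2144 CPM and at 346 and 469 CPM. Mir216a had 0 reads. None of the 13 stood above Mir21a by mean, while 8 stood above Mir29c and 5 below Mir29a.

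Of 18 genes described as opposing fibrosis, 16 reached 1 CPM in both libraries, against 20% of all 1973 genes, with a median of 359 CPM. The leading genes were Mir30e, at 14581 and 19890 CPM, Mir429, at 15017 and 12739 CPM, and Mir30a, at 9427 and 13871 CPM. Mir30e and Mir30a belong to the miR-30 family of nephron epithelium, and Mir429 to the miR-200 family, which keeps epithelial character. These 3 were the members of that list above Mir21a by mean, and 13 of the 18 stood above Mir29c and 4 below Mir29a. By counted reads, Mir29a and Mir29c thus stood in the lower part of the list to which they would belong by their known role. That place depends on which genes were listed. All 4 genes below Mir29a are copies. Mir26a-2, at 40.8 and 45.0 CPM, and Mir26a-1, at 9.68 and 13.3 CPM, each have 1 arm that lies whole in another miRNA gene. Mir133a-1 and Mir133a-2 had 0 reads. Since copies lose reads to the multiply matching class, these counts do not show their mature strands to be absent or below miR-29a.

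No gene of either list with a mean count of at least 100 (9 and 15 genes) passed 2-fold between the libraries. With 3.41% of all 264 genes past it, a count of 0 in lists this short says nothing particular about them. The median log2 ratio was 0.40 in the first list and 0.05 in the second, beside 0.13 for all 264 genes.

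**Figure D4:**
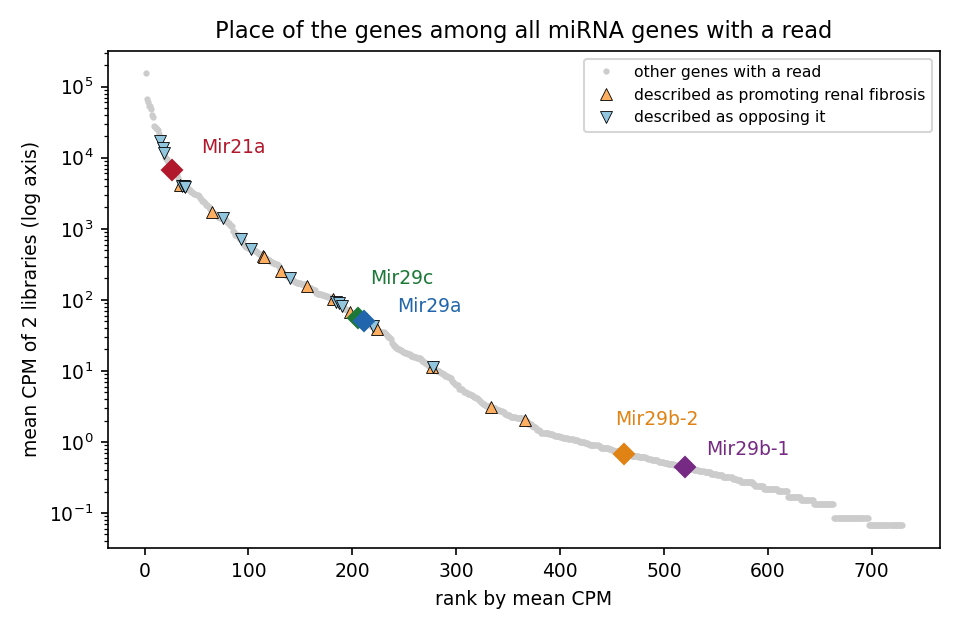
Mean CPM (log axis) against rank for all miRNA genes with a read; diamonds mark the members, upward triangles the genes described as promoting renal fibrosis and downward triangles those described as opposing it. Mir21a is at rank 26, Mir29c and Mir29a at ranks 205 and 211, and Mir29b-2 and Mir29b-1 at ranks 460 and 519.

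The libraries held 7434182 and 5863293 own-strand reads in miRNA genes. Markers of kidney compartments were abundant, with sums of 52117 and 59723 CPM over 8 genes of epithelium, 28775 and 33945 CPM over 5 genes of stroma and smooth muscle, and 49708 and 47805 CPM for the endothelial Mir126a. The 4 genes known from adult kidney summed to 506 and 356 CPM, and the 2 erythroid genes to 339 and 466 CPM. The leukocyte list, of a lineage known to carry miR-21, summed to 619 and 700.1 CPM over 4 genes. Mir142, also on that list, was not found by name among the measured genes, so this sum leaves it out. The hepatocyte gene Mir122 stood at 319 and 628 CPM. On the muscle list, Mir206 stood at 959 and 659 CPM and the other 3 genes found were at 0. Mir1a-2, also on that list, was not found by name. All 3 Mir124 genes of neurons were at 0. Several of these genes at 0 are known as copies that share a mature strand, so their 0 does not show that muscle or neuronal miRNAs were absent. Which of these cells supplied the reads of Mir21a or of the miR-29 genes was not tested.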

How the data were processed

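The authors deposited raw read counts for each miRNA gene, in total and split by strand. Per the deposited notes, reads were aligned to mm10 and counted on the GENCODE M4 annotation, with no program named there. Own-strand counts were scaled to 1000000 (CPM) over their sum in all miRNA genes, leaving out the lines for reads outside genes. The files list 14419931 and 12102315 reads, of which 51.6% and 48.4% were own-strand gene reads.

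GENCODE M21 named 1894 of 1973 genes by identifier without version. Sequences came from RefSeq (GRCm38.p6) by symbol, and exact matches were sought in M21 miRNA hairpins, not in the genome. Intervals are exact (Clopper-Pearson) binomial, those of ratios from the share of 1 count in the sum of both. With 1 group no contrast was fitted and no p-value is given, and the labels do not say whether the pools share litters. TMM factors came from edgeR 4.0.16 and size factors from DESeq2 1.42.0 (R 4.3.3). Other steps used Python 3.11.15, numpy 2.4.6, scipy 1.17.1 and matplotlib 3.10.9. The intervals and the count past 2-fold were tested on simulated counts with counting error only and a known library scale. Variation between pools and the choice of scaling were not simulated.

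Members, lists and rules were chosen with earlier results of these data known. Named genes are the members, genes with the seed of their main strand, the 2 genes next above and below each member in mean CPM (not listed for Mir29b-1 and Mir29b-2, which tie with others at a few reads), neighbours within 10 kb, and the 3 highest of each list. Mir21b, the Mir26a genes, list genes at 0, marker genes and the grouping by shared arms were picked once values were known. Alternatives were other library sizes and scalings, both strands, other count, CPM and fold limits, each replicate left out, and miR-29 genes without a shared stretch.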

Additional observations from a re-analysis of the deposited data

How the results depend on the processing

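Of 107 alternative values, 76 stayed within a set limit and 31 moved further. The limit was the SD for levels and for ratios between genes, the interval for library ratios, and 1.5-fold for counts of genes. The 76 include levels and ratios with a replicate left out, which stay within the SD by construction. They also include ratios between genes without regard to strand, which could not move because no member had opposite-strand reads. Mean levels with TMM and DESeq2 size factors are among them too. As used here, these scalings keep the product of both library totals, so a mean over the libraries can barely move. The list counts, 12 of 13 and 16 of 18, could leave their limit only by falling. With all reads, mapped reads or the gene reads without Mir10a as library size, the mean of Mir21a was 3360, 4132 and 7944 CPM and that of the summed miR-29 genes 54.1, 66.6 and 128 CPM. Without regard to strand Mir21a stood at 6568 CPM. The log2 library ratio of Mir21a was -0.0998, -0.0635 and -0.0553 with those library sizes, -0.14 with TMM and -0.17 with DESeq2 size factors, which put the summed miR-29 genes at 0.0129. With Mir29a alone in place of all miR-29 genes, Mir21a was 132 times higher, a rise that follows from leaving out Mir29c. For single miR-29 genes 12 levels moved, 9 lower and 3 higher. Past 2-fold were 29 genes at a mean count of at least 10, 1 at 1000, 4 with TMM and 4 with DESeq2 size factors, against 9 as reported, and 42 passed 1.5-fold.

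With 2 libraries, leaving out 1 returns the value of the other, so the ranges below show the spread between libraries and do not test stability. They were 6695 to 6742 CPM for Mir21a, 102 to 115 CPM for the summed miR-29 genes and 58.2 to 66.1 for their ratio. For Mir29a over Mir29b-1 the range was 90.8 to 156.5, and for Mir29c over Mir29b-2 it was 77.2 to 88.8. The lists kept counts of 12 and 16 genes. No paired analysis was possible because there is 1 group. Depth limits Mir29b-1 and Mir29b-2, at 2 to 5 reads, and reads that match both Mir29b hairpins are not placed in either.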
